A study of Homo sapiens with 22 samples.

Results

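The 3 untreated libraries of HCT116 and the 3 untreated libraries of LS180 were set against each other. These 6 libraries were chosen by their labels, as the 0 h samples of an actinomycin D time course, and they are 6 of the 22 samples of the series. HCT116 and LS180 are established human colorectal carcinoma lines, and LS180 is known for making mucus. The series concerns the double-stranded RNA-binding protein STAU1 and the mRNA of FOXA1. Actinomycin D, a drug that stops transcription, was labelled at 5 µg/ml for 0, 2 or 4 h in both lines, so that the 0 h libraries had no time in the drug. The labels of these libraries name no transgene and no knockdown. The labels do not say whether the 3 libraries of a line came from separate cultures, so the p-values measure a spread between libraries, which may be technical. For the edgeR p-values that spread was estimated within the groups of all 18 actinomycin D libraries, of which these 6 are a part. Each line is 1 cell line, so a difference between them is a difference between 2 lines and not between 2 classes of tumour.

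The colon lining is renewed from stem cells at the base of the crypt, which are kept by Wnt signals and express LGR5, ASCL2, OLFM4 and EPHB2. Their descendants become absorptive cells with a brush border of microvilli, or secretory cells such as goblet cells, which make mucins and trefoil factors. CDX1, CDX2, HNF4A, GATA6 and the FOXA proteins are the transcription factors best known for setting the intestinal programme, and colorectal cancer lines keep it to very different degrees.

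The 6 libraries held 47.8 to 60.9 M expected counts (M is 1e6), the read counts per gene that RSEM estimates. Levels are given as CPM, counts per 1e6 counts of a library after TMM scaling, as mean ± SD over n = 3 libraries a line. Where a pair of levels is joined by "against" without naming the lines, the larger level is that of the line said to be higher. A log2 difference is HCT116 minus LS180, and a gene is called where the edgeR adjusted p is below 0.05. Short noncoding RNA took 18% ± 0.529 of the counts in HCT116 and 19.8% ± 1.89 in LS180 (exact permutation test, two-sided, p = 0.3). Ribosomal protein genes took 8.49% ± 0.455 of the rest in HCT116 and 9.94% ± 0.0586 in LS180 (exact permutation p = 0.1, the smallest that 3 against 3 libraries allow). HCT116 library 1 stood somewhat apart: its median gap to the other 2 libraries of the line was 0.106 on the log2 scale, against 0.0506 to 0.073 for the other 5 libraries. Without it the counts given next were 5658 genes higher in HCT116 and 7339 higher in LS180.

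The labelled tissue was checked against 15 markers of colorectal epithelium. Their summed level was 3798 to 4044 CPM in HCT116 and 4648 to 4962 CPM in LS180. In HCT116 most of this sum came from KRT8, KRT18, KRT19 (579 ± 43.6 CPM) and EPCAM, and the median log2 difference over the 15 markers was -10.31. The cell adhesion protein EPCAM was at 288, 313 and 302 CPM in HCT116 and 642, 603 and 641 CPM in LS180, and the keratins KRT8 (1675 ± 83.4 against 1226 ± 115 CPM) and KRT18 (1337 ± 38.6 against 1070 ± 60.9 CPM) were abundant in both. VIL1, the villin of the brush border, was at 0.0748, 0.0357 and 0.0394 CPM in HCT116 and at 190, 181 and 175 CPM in LS180. Of the 15 markers 4 were higher in HCT116 and 11 in LS180, 8 of them at least 8-fold, and CDX1 and CEACAM5 had 0 counts in HCT116. KRT20, a marker of differentiated colonocytes, was low in both lines, at 1.83, 1.05 and 1.01 CPM in HCT116 and 0.357, 0.311 and 0.215 CPM in LS180. In bulk RNA, fewer expressing cells and less RNA per cell cannot be told apart. Markers of other cell types were low in both lines: the 12 fibroblast markers summed to 5.10 to 7.68 CPM in HCT116 and 5.86 to 6.70 CPM in LS180, with ACTA2 the largest part, and of the 6 that could be tested 1 (COL1A1) was at least 8-fold higher in HCT116 and 4 were higher in LS180, 3 of these at least 8-fold. In the 2 lines, in the same order, the summed levels were 1.46 to 2.09 and 1.36 to 1.53 CPM for the 15 immune markers and 0.434 to 0.695 and 0.524 to 0.754 CPM for the 10 endothelial markers.

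Most of the measured transcriptome differed. Of 17256 genes tested, 13162 were called (76.3%), of which 5819 were higher in HCT116 (33.7%) and 7343 higher in LS180 (42.6%), and for 13777 genes (79.84%) the 3 libraries of one line did not overlap those of the other. With so large a background, a call says little about any one gene, so the size of a difference is given throughout. Counts of called members in the lists below are likewise to be read beside 33.7% for HCT116 and 42.6% for LS180. Called differences of at least 8-fold were found for 1228 genes higher in HCT116 (7.12%) and 1608 higher in LS180 (9.32%). The median log2 difference over all genes was -0.10. Scaling moved this median: it was 0.02 with RLE size factors and 0.17 with ribosomal protein gene totals, so that some list medians near 0 changed sign with the scaling. The share of calls that were higher in HCT116 was 44.21% as reported and 58.03% with ribosomal protein gene totals, 53.86% with a filter of 1 CPM and 52.24% with no filter.

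**Figure D1:**
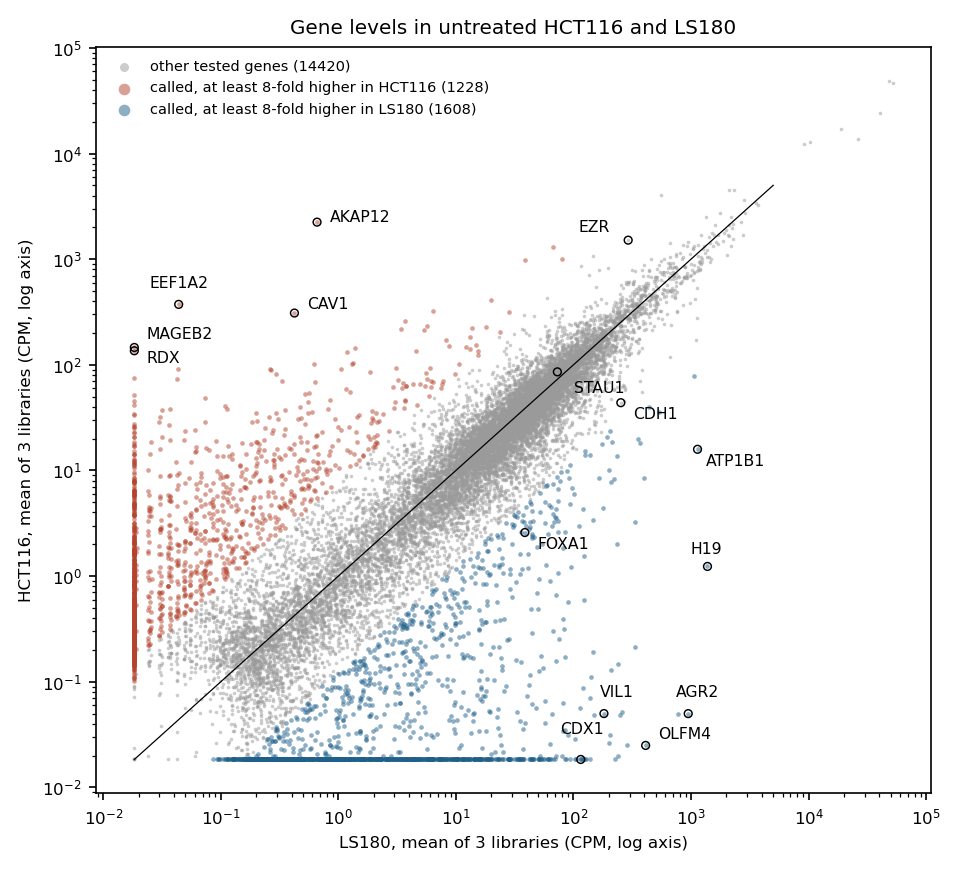
Mean level of each gene in untreated HCT116 (vertical axis) against untreated LS180 (horizontal axis), in CPM on log axes, over 3 libraries a line. Genes called and at least 8-fold apart are coloured, 1228 higher in HCT116 and 1608 higher in LS180, levels below 3 counts over a line are drawn at that floor, and the line marks equal levels. AKAP12 and EEF1A2 lie far above the line, H19 and AGR2 far below it, and STAU1 close to it.

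The largest differences were between a clear level and none. MAGEB2, a cancer-testis antigen gene on chromosome X, was at 148, 147 and 143 CPM in HCT116 and had 0 counts in all 3 LS180 libraries, at least 7935-fold higher in HCT116. In the same direction stood HS6ST2, a heparan sulfate sulfotransferase (at least 2833-fold), HTR7, a serotonin receptor (at least 1856-fold), BEX2 (at least 1400-fold), the vesicle GTPase RAB31 (at least 1378-fold), the homeobox factor IRX4 (at least 1218-fold), NR3C1, the glucocorticoid receptor (at least 1140-fold), and FAM101B (at least 1129-fold). These bounds set the 0 counts of a line at 3 counts over its 3 libraries. EEF1A2, a translation elongation factor of muscle and neurons, was at 397, 343 and 379 CPM in HCT116 and at 0.0179, 0.0777 and 0.0359 CPM in LS180. RDX, which encodes the membrane-cytoskeleton linker radixin, was at 130, 141 and 137 CPM in HCT116, while LS180 held 1 count in its 3 libraries, a ratio of 22100 (95% counting interval 3966.0 to 873000.0). Its relatives were not like this: ezrin (EZR) was at 1467, 1515 and 1558 CPM in HCT116 and 278, 304 and 294 CPM in LS180, and moesin (MSN) at 164, 183 and 191 against 67.7, 72.3 and 75.3 CPM. All 3 genes of the ezrin, radixin and moesin family were thus higher in HCT116, and only radixin was near absent from LS180. MSN was chosen after its values were seen.

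In the other direction CDX1, an intestinal homeobox factor, was at 120, 116 and 110 CPM in LS180 with 0 counts in HCT116, at least 6670-fold higher in LS180. The mesenchymal cadherin CDH11 (at least 5374-fold), the NADPH oxidase NOX1 (at least 3841-fold), the carbonyl reductase CBR1 (at least 3497-fold), the myosin MYH13 (at least 3078-fold), the carcinoembryonic antigen CEACAM5 (at least 2894-fold), the GTPase RAB32 (at least 2599-fold) and the Wnt inhibitor APCDD1 (at least 2578-fold) also had 0 counts in HCT116. HIST1H1D (at least 7382-fold) and UGT1A8 (at least 3654-fold) belong to families with near-identical copies or shared exons, so their reads may have been divided among relatives.

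The most abundant transcripts among the 8-fold differences are given next, and their levels are shares of the counts of a library. In HCT116 the kinase-anchoring protein gene AKAP12 was at 2264, 2213 and 2246 CPM, against 0.393, 0.757 and 0.826 CPM in LS180. DCBLD2 (1310 ± 54.7 against 67.3 ± 4.56 CPM), the annexin ANXA1 (1010 ± 82.7 against 80.02 ± 7.72 CPM), the pyruvate dehydrogenase phosphatase PDP1 (976 ± 69.9 against 38.4 ± 2.12 CPM) and ERRFI1, a feedback inhibitor of EGFR (414 ± 31.5 against 19.9 ± 1.14 CPM), followed. In LS180 the imprinted noncoding RNA H19 was at 1446, 1432 and 1264 CPM, against 1.38, 1.14 and 1.18 CPM in HCT116. The sodium pump subunit ATP1B1 (1136 ± 26.2 against 15.9 ± 1.39 CPM) and the chloride cotransporter SLC12A2 (1055 ± 47.8 against 78.7 ± 1.90 CPM) came next. AGR2, a protein disulfide isomerase needed to fold mucins, was at 995, 884 and 960 CPM in LS180, and BCAT1, a branched-chain aminotransferase, at 787, 731 and 786 CPM. Each of these last 2 genes had 10 counts in HCT116, all of them in library 1. Over the 12 genes at 100 CPM or more in every LS180 library and 0 counts in HCT116 libraries 2 and 3, library 1 held 40 counts, or 0.0172% of their summed LS180 level, spread over 10 of the 12. By this choice only library 1 of HCT116 could hold counts, and no such set was drawn up for libraries 2 or 3. Traces were not confined to library 1: TSPAN8, abundant in LS180, was at 0.0599, 0.0357 and 0.0592 CPM in the HCT116 libraries. The source of these counts was not tested.

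A class of genes on in one line and off in the other was drawn up after the values were seen: at least 10 CPM in every library of one line and at most 3 counts over the 3 libraries of the other. It held 128 genes on in LS180, 120 of them protein-coding and 67 with 0 counts in HCT116, and 32 genes on in HCT116, all protein-coding and 17 with 0 counts in LS180.

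The promoters of 5 of the genes named above are printed to show promoters with few and with many CG pairs, and were picked for that. All but AGR2, which had 10 counts in HCT116, are in the class above. They are the 250 bases before the start that the RefSeq table gives, 5′ to 3′ on the gene's strand, on GRCh38.p14, with each CG pair in capitals. For all 5 genes this start lies inside the span that GENCODE gives the gene, downstream of its outermost start. The windows of CEACAM5, CBR1 and RDX reach across that outermost start, so they hold some bases of the span. Those of AGR2 and NR3C1 lie wholly inside the span, so other promoters of these genes are not shown.
CEACAM5, chr19:41708376-41708625, plus strand: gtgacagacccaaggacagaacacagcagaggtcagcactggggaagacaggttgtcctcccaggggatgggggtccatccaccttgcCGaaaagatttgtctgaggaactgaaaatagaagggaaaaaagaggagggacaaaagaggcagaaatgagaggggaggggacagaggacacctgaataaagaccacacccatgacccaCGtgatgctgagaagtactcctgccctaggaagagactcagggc
AGR2, chr7:16805000-16805249, minus strand: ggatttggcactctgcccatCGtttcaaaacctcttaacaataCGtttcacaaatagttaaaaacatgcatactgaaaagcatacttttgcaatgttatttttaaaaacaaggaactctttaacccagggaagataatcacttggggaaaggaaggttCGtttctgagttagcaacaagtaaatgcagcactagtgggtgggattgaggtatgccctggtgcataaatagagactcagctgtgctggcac
CBR1, chr21:36069774-36070023, plus strand: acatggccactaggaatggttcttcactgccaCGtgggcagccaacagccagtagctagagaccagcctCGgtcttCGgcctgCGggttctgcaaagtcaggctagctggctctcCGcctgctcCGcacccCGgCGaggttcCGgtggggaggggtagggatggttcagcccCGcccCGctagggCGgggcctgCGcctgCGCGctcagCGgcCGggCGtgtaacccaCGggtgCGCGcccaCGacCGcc
RDX, chr11:110296615-110296864, minus strand: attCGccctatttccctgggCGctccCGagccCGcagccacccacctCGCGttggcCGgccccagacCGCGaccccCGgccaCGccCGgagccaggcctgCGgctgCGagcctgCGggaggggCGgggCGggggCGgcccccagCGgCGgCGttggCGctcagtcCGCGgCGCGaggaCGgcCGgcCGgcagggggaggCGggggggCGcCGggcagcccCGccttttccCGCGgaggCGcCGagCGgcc
NR3C1, chr5:143404483-143404732, minus strand: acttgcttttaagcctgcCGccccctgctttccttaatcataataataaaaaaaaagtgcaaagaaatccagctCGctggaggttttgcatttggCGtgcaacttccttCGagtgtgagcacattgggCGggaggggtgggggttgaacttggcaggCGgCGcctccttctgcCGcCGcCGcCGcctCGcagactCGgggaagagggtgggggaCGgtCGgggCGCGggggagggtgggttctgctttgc
The CEACAM5 window holds 2 CG pairs and that of AGR2 holds 3, while CBR1 holds 23, RDX 38 and NR3C1 17. The median over the promoters of the protein-coding genes tested was 20, and 97.0% of them hold at least as many as CEACAM5 but 5.01% as many as RDX. DNA methylation was not measured. The promoter table matched 74.7% of the protein-coding genes at least 8-fold higher in HCT116 and 76.8% of those higher in LS180, too few for a comparison of motifs between the sets, which is void for that reason.

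STAU1 and FOXA1, the genes of the series' title, differed between the lines in opposite directions and by very different amounts. STAU1 was at 83.8, 87.8 and 85.7 CPM in HCT116 and 75.2, 72.6 and 71.0 CPM in LS180, a log2 difference of 0.23 (SE 0.0526, edgeR adjusted p = 0.000553). The lines did not overlap, but the gap was small and of the size of the scaling shift. STAU2, its relative, was at 31.6, 28.6 and 27.9 CPM against 40.6, 39.8 and 44.6 CPM, lower in HCT116 by a log2 difference of -0.50. FOXA1, a pioneer factor that opens chromatin, was at 3.17, 2.39 and 2.19 CPM in HCT116 and 40.4, 36.8 and 38.6 CPM in LS180 (log2 difference -3.89, SE 0.160, edgeR adjusted p = 6.85e-14), 14.8-fold higher in LS180. FOXA2 was lower still in HCT116, at 0.0898, 0.0178 and 0.0197 CPM against 10.02, 9.34 and 8.88 CPM (log2 difference -7.61). FOXA3 was the least unequal of the 3, at 4.55, 3.35 and 3.19 against 7.16, 6.78 and 6.08 CPM (log2 difference -0.85, SE 0.172). All 3 FOXA genes were thus higher in untreated LS180, by very different amounts.

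**Figure D2:**
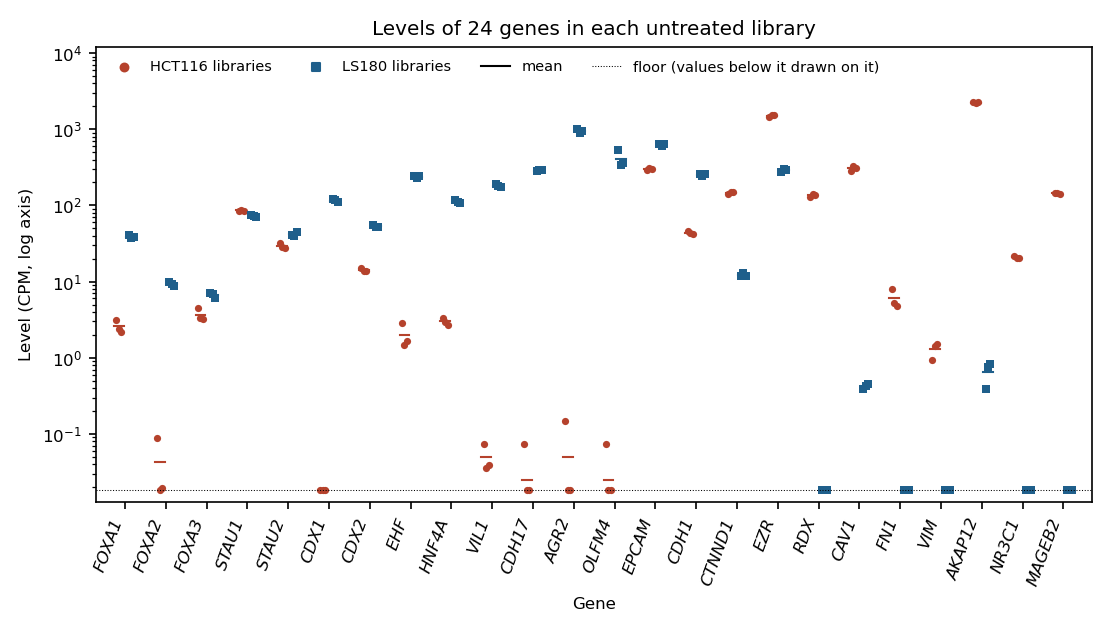
Level of 24 genes in each of the 6 untreated libraries, in CPM on a log axis, 3 points for each line, with a short bar at the mean and values below the dotted floor (3 counts over a line) drawn on it. For most of these genes the 3 points of a line lie within a small part of the distance between the lines, as for FOXA1 at 2.19 to 3.17 CPM in HCT116 and 36.8 to 40.4 CPM in LS180.

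Of 24 intestinal transcription factors 22 could be tested, 6 higher in HCT116, 15 higher in LS180 and 1 not called, with a median log2 difference of -1.94. HNF4A, a regulator of enterocyte and liver genes, was at 118, 112 and 106 CPM in LS180 and 3.35, 2.94 and 2.72 CPM in HCT116. CDX2 was reduced rather than lost, at 15.1, 13.6 and 13.7 CPM in HCT116 and 56, 52.1 and 52.4 CPM in LS180 (log2 difference -1.92), although its relative CDX1 had 0 counts. The epithelial ETS factor EHF was at 236 ± 6.95 CPM in LS180 and 2.00 ± 0.738 CPM in HCT116. Against the list's direction ran KLF4 (45.0 ± 2.92 CPM in HCT116, 12.5 ± 0.166 CPM in LS180), TCF7L2, the main T-cell factor of the Wnt pathway in gut (15.1 ± 0.0259 against 4.29 ± 0.276 CPM), and MEIS2 (7.83 ± 0.921 against 0.0667 ± 0.0258 CPM). Its relative MEIS1 was the reverse, at 3.29 ± 0.216 CPM in LS180 with 0 counts in HCT116. HNF4A was named after its values were seen.

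Secretory genes were far higher in LS180. In the list of regulators of the secretory fate, SPDEF and ATOH1 were low in both lines but lower in HCT116. SPDEF, the goblet cell factor, was at 3.97 ± 0.177 CPM in LS180 and 0.00998 ± 0.0173 CPM in HCT116. ATOH1, which commits cells to the secretory fate, was at 1.96 ± 0.527 and 0.0294 ± 0.0210 CPM. Of 14 tested members of that list 11 were higher in LS180, the Notch ligand DLL4 among them (23.4 ± 2.11 against 1.29 ± 0.0961 CPM), and 3 in HCT116, namely NOTCH3 (5.38 ± 1.00 against 0.584 ± 0.0522 CPM), GFI1 and the receptor NOTCH2 (169 ± 4.09 against 110 ± 1.10 CPM).

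Of 14 mucin genes 9 passed the filter, 8 higher in LS180 and 1 in HCT116 (median log2 difference -7.53, or -7.44 with genes at 0 counts set at their bound). Summed over the 14 genes, mucin mRNA was at 114 to 126 CPM in LS180 and at 1.0 to 1.5 CPM in HCT116. The membrane mucin MUC13 was the most abundant, at 69.98, 70.8 and 71.0 CPM in LS180 and 0.0599, 0 and 0 CPM in HCT116. The secreted gastric-type mucin MUC6 was at 33.1, 33.4 and 26.6 CPM in LS180 with 0 counts in HCT116, above MUC5B (11.1 ± 1.40 CPM), MUC5AC (2.84 ± 0.615 CPM) and MUC2 (3.0 ± 0.935 CPM), the main mucin of the normal colon. MUC4 was the exception, at 0.620 ± 0.163 CPM in HCT116 and 0.00598 ± 0.0104 CPM in LS180.

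Of 28 proteins that goblet and Paneth cells secrete 23 passed the filter, 22 higher in LS180, 20 of them at least 8-fold, and none higher in HCT116 (median log2 difference -9.49, or -8.15 with genes at 0 counts at their bound). The trefoil factor TFF3 was at 58.9, 61.6 and 59.0 CPM in LS180 and 0.0150, 0 and 0 CPM in HCT116. SPINK4 (33.8 ± 1.56 CPM), the phospholipase PLA2G2A (42.3 ± 6.08 CPM) and the Paneth cell defensin DEFA6 (28.6 ± 10.4 CPM) were seen in LS180 with 0 counts in HCT116. Only BCAS1 was not called (0.121 ± 0.129 against 0.295 ± 0.117 CPM), with a log2 difference of -1.17 (edgeR adjusted p = 0.0713). It was called higher in LS180 with the replicate block (edgeR adjusted p = 0.0417), with no filter (0.0462), without LS180 library 3 (0.0362) and without HCT116 library 1 (0.00220, log2 difference -2.60).

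The enzymes that build mucin sugars were present in both lines in different sets. Of 29 tested, 21 were higher in LS180 and 6 in HCT116. The sialyltransferase ST6GALNAC1, which makes the sialyl-Tn antigen, was at 155, 129 and 128 CPM in LS180 and 0, 0.0178 and 0 CPM in HCT116. GCNT3, the core enzyme of mucin branching (81.3 ± 0.134 against 1.84 ± 0.336 CPM), the Lewis fucosyltransferase FUT3 (73.7 ± 4.99 against 1.07 ± 0.214 CPM) and the initiating transferase GALNT5 (121 ± 5.56 against 4.29 ± 0.176 CPM) were also higher in LS180. GALNT14, another initiating transferase, was the reverse, at 35.0 ± 0.759 CPM in HCT116 and 0.200 ± 0.123 CPM in LS180. C1GALT1, which makes the core of most mucin sugars, was less unequal and called higher in HCT116 (37.1 ± 2.75 against 28.9 ± 1.28 CPM).

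Absorptive genes were mostly higher in LS180, and again unevenly. Of 24 tested brush border genes 18 were higher in LS180, 10 of them at least 8-fold, and 6 in HCT116. Beside VIL1 stood ANKS4B (19.9 ± 1.10 CPM, 0 counts in HCT116) and MYO7B (15.1 ± 1.06 against 0.0747 ± 0.0341 CPM), both parts of the links between microvilli, and the microvillar motor MYO1A (3.31 ± 0.150 against 0.0791 ± 0.0616 CPM). The genes higher in HCT116 were EZR, the actin bundler ESPN (14.3 ± 0.998 against 0.124 ± 0.0449 CPM), the peptidases DPP4 (113 ± 24.4 against 37.4 ± 1.03 CPM) and ENPEP (3.11 ± 0.460 against 0.459 ± 0.0534 CPM), lactase (LCT, 1.11 ± 0.138 against 0.0736 ± 0.0181 CPM) and the related disaccharidase MGAM (0.392 CPM on average in HCT116), which was named after its values were seen. Summed over the list, brush border mRNA was higher in HCT116 (1887 to 1998 CPM) than in LS180 (1154 to 1181 CPM), since EZR makes up most of it.

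Of 36 absorptive and colonocyte genes 24 passed the filter, 20 higher in LS180, 17 of them at least 8-fold, and 2 in HCT116 (median log2 difference -5.19, or -4.46 with genes at 0 counts at their bound). The liver-intestine cadherin CDH17 was at 280, 288 and 293 CPM in LS180 and 0.0748, 0 and 0 CPM in HCT116. The galectin LGALS4 was at 212, 207 and 200 CPM against 0.0748, 0 and 0.0197 CPM, and the tetraspanin TSPAN8 at 251, 247 and 280 CPM against 0.0599, 0.0357 and 0.0592 CPM. GUCY2C, the receptor of guanylin, was at 7.63 ± 0.570 CPM in LS180 with 0 counts in HCT116. Higher in HCT116 were KRT20 and the carbonic anhydrase CA2 (27.5 ± 0.567 against 17.4 ± 1.88 CPM). Among 7 tested CEACAM genes 6 were higher in LS180: CEACAM5 was at 52.1, 48.6 and 49.3 CPM with 0 counts in HCT116, and CEACAM6 at 60.0, 62.9 and 65.7 CPM against 0, 0.0178 and 0.0592 CPM. CEACAM19 was called higher in HCT116 (edgeR adjusted p = 0.0437), at 0.793, 0.588 and 0.217 CPM, and its libraries overlapped those of LS180. That call was lost without HCT116 library 1 (edgeR adjusted p = 0.218), without HCT116 library 2 (0.0897) and without any one of the LS180 libraries (0.0746 to 0.112).

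Hormone-making enteroendocrine cells had little trace in either line: 8 of 24 genes passed the filter, 4 higher in each line. The granin SCG2 was at 14.2 ± 1.73 CPM in HCT116 and 0.415 ± 0.0415 CPM in LS180, while the neuronal enolase ENO2 (28.7 ± 1.44 against 4.08 ± 0.145 CPM) and ISL1 (5.50 ± 0.117 against 0.975 ± 0.0955 CPM) were higher in LS180.

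Crypt stem cell genes were also mostly higher in LS180, beside the genes of differentiated cells described above. Of 31 tested Wnt target and stem cell genes 24 were higher in LS180, 15 of them at least 8-fold, and 7 in HCT116 (median log2 difference -2.90). LGR5, the R-spondin receptor that marks crypt stem cells, was at 56.9, 53 and 54.7 CPM in LS180 and 0.0299, 0.0178 and 0 CPM in HCT116. ASCL2, the stem cell transcription factor, was at 107, 107 and 100 CPM against 0.0150, 0 and 0 CPM. OLFM4 was at 530, 343 and 360 CPM against 0.0748, 0 and 0 CPM, and LS180 library 1 was the highest of its line. AXIN2, a feedback target of beta-catenin, was lower in HCT116 without being lost, at 10.5, 9.63 and 9.90 CPM against 196, 204 and 197 CPM. The 7 genes higher in HCT116 include PROM1 (25.2, 22.7 and 21.7 CPM against 0.0179, 0.0194 and 0.0180 CPM), the RNA-binding protein MSI1 (3.67 ± 0.211 against 0.0721 ± 0.0528 CPM), the Wnt antagonist DKK1 (140 ± 9.87 against 13.1 ± 1.89 CPM), MYC (493, 449 and 468 CPM against 270, 247 and 229 CPM) and CD44 (285 ± 22.4 against 188 ± 8.95 CPM). LGR5 and AXIN2 were named after their values were seen.

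EPH receptors guide cell position along the crypt. EPHB2 was at 387, 352 and 332 CPM in LS180 and 22.6, 17.6 and 19 CPM in HCT116, and EPHB3 at 378, 333 and 287 CPM against 3.58, 3.08 and 3.08 CPM. Of 18 tested EPH and ephrin genes 13 were higher in LS180 and 5 in HCT116. EPHA2 (154 ± 8.60 against 129 ± 8.0 CPM) and the ligand EFNB2 (116 ± 9.93 against 54.8 ± 2.01 CPM) were among those higher in HCT116.

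Junction genes were shifted more moderately. Of 37 tested, 25 were higher in LS180, 5 of them at least 8-fold, 8 in HCT116, and 4 were not called (median log2 difference -0.69). E-cadherin (CDH1) was at 46.0, 43.6 and 41.8 CPM in HCT116 and 255, 246 and 257 CPM in LS180 (log2 difference -2.53), while its partner CTNND1, p120-catenin, was the reverse, at 140, 149 and 150 CPM against 11.9, 12.9 and 12 CPM. P-cadherin (CDH3) was higher in HCT116 too (163 ± 7.45 against 59.8 ± 2.13 CPM). The pore-forming claudin CLDN2 (145 ± 1.31 against 0.193 ± 0.108 CPM), CLDN1 (19.5 to 21.0 CPM against 0 to 0.0449 CPM) and CLDN3 (44.4 ± 2.37 against 2.52 ± 0.512 CPM) were higher in LS180. ESRP1, a splicing regulator of epithelial cells, was at 72.1, 70.4 and 67.6 CPM in HCT116 and 7.33, 7.57 and 8.28 CPM in LS180, the reverse of E-cadherin. Keratins had no common direction: of 19 tested, 10 were higher in HCT116, 6 in LS180 and 3 not called. KRT19 (579 ± 43.6 against 291 ± 19.97 CPM) and KRT23 (8.10 ± 2.07 against 0.268 ± 0.0540 CPM) were higher in HCT116 and KRT17 (9.72 ± 2.96 against 0.0357 ± 0.0618 CPM) in LS180. KRT7 was at 3.39 ± 2.68 and 3.38 ± 0.0129 CPM, with a wide spread in HCT116.

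Genes of epithelial-mesenchymal transition went the other way. Of 30 tested, 20 were higher in HCT116, 10 of them at least 8-fold, and 8 in LS180 (median log2 difference 2.25). The list's summed level was close in the lines, 932 to 952 CPM in HCT116 and 793 to 817.5 CPM in LS180, and the 4 members with the largest log2 differences toward HCT116, VIM, FN1, LOXL2 and ZEB1, were each below 10 CPM in HCT116. Vimentin (VIM), the mesenchymal filament protein, was at 0.943, 1.41 and 1.52 CPM in HCT116 with 0 counts in LS180. The repressor of E-cadherin ZEB1 was at 3.83, 4.99 and 4.30 CPM against 0.197, 0.155 and 0.215 CPM, fibronectin (FN1) at 8.10, 5.24 and 4.83 CPM against 0.0179, 0 and 0.0180 CPM, and the collagen cross-linker LOXL2 at 7.02 ± 1.23 against 0.159 ± 0.0215 CPM. The surface protein CD109 was the most abundant of those named (72.1 ± 8.58 against 3.23 ± 0.355 CPM). In LS180 the higher members were TGFBI (33.0 ± 0.356 against 0.0512 ± 0.0444 CPM), TGFB2 (24.2 ± 1.38 against 0.169 ± 0.0163 CPM), the tropomyosin TPM1 (194 ± 3.57 against 20.9 ± 1.92 CPM) and the protease MMP14 (30.2 ± 0.795 against 6.08 ± 1.24 CPM).

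Caveolae are small pits of the cell membrane, and YAP is a co-activator that responds to cell shape and density. Of 22 tested genes of these 2 systems 17 were higher in HCT116, 9 of them at least 8-fold, and 4 in LS180 (median log2 difference 1.94). Caveolin 1 (CAV1), the coat protein, was at 284, 330 and 314 CPM in HCT116 and 0.393, 0.427 and 0.449 CPM in LS180. PTRF, the cavin that caveolae need, was at 151 ± 5.21 against 8.81 ± 0.482 CPM, and the YAP partner AMOTL1 at 69.4, 76.2 and 73.7 CPM against 0.0715, 0.0194 and 0.0359 CPM. ANXA10 was at 41.7 ± 6.64 CPM against 0.0184 ± 0.0180 CPM. CTGF, a textbook YAP target, was the reverse, at 1.21 ± 0.276 CPM in HCT116 and 3.10 ± 0.209 CPM in LS180, and TEAD4, the DNA-binding partner, did not pass the test (27.4 ± 0.846 and 26.2 ± 0.935 CPM).

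Enzymes and carriers that process drugs and toxins were mostly higher in LS180. Of 65 listed genes 53 passed the filter, 43 higher in LS180, 28 of them at least 8-fold, and 7 in HCT116 (median log2 difference -3.24). The glucuronosyltransferase UGT1A6 was at 121, 114 and 122 CPM in LS180 and 0.0150, 0 and 0 CPM in HCT116, with the limit that UGT1A genes share their last exons. UGT2B7 (12.7 ± 0.345 CPM) had 0 counts in HCT116, and the glutathione transferase GSTT1 was at 32.2 ± 1.39 against 0.00499 ± 0.00864 CPM. In HCT116 the export pump ABCC2 was at 176, 113 and 109 CPM against 1.34, 1.13 and 1.11 CPM, the vitamin D hydroxylase CYP24A1 at 71.9, 45.5 and 42.1 CPM against 0.393, 0.524 and 0.646 CPM, and the retinal dehydrogenase ALDH1A3 at 296, 339 and 330 CPM against 5.95, 6.76 and 6.30 CPM. For ABCC2 and CYP24A1 HCT116 library 1 was well above the other 2 libraries of the line, and all 3 were far above LS180.

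Of 26 antioxidant genes under NRF2 7 were higher in HCT116 (26.9%), 13 in LS180 (50%) and 6 not called, beside 33.7% and 42.6% over all genes. The list's median of -0.11 changed sign with the scaling. The intestinal glutathione peroxidase GPX2 (161, 144 and 140 CPM in LS180, 0.0898, 0.0357 and 0.0197 CPM in HCT116) and the aldo-keto reductases AKR1C1 (42.6 ± 3.69 against 0.115 ± 0.0417 CPM), AKR1C3 and AKR1B10 were higher in LS180. The thioredoxin reductase TXNRD1 (614 ± 32.6 against 278 ± 8.97 CPM) and the haem oxygenase HMOX1 (36.4 ± 0.654 against 6.48 ± 0.719 CPM) were higher in HCT116. Of 12 metallothionein and zinc transport genes 9 were higher in LS180 (median log2 difference -2.70, or -2.46 with genes at 0 counts at their bound). This median was -1.15 with ribosomal protein totals, -1.2 with the 6 untreated libraries alone and -0.95 with a filter of 1 CPM, and leaving out a library gave -3.61 to -2.36. MT1G was at 23.5 ± 1.71 CPM in LS180 with 0 counts in HCT116, MT2A was higher in HCT116 (156 ± 48.3 against 69.3 ± 1.33 CPM), and MT1E was not called (177 ± 58.7 and 191 ± 8.24 CPM). Metallothionein copies can share reads. Of 43 genes for liver-type secreted and lipid proteins 23 passed the filter, 16 higher in LS180 and 6 in HCT116. The hormone FGF19 (15.9 ± 1.21 against 3.76 ± 0.561 CPM) and the urea cycle enzyme CPS1 (48.9 ± 2.42 against 21.5 ± 0.820 CPM) were higher in HCT116.

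Growth factor signalling genes differed in both directions, as all genes did. Of 34 tested genes of the ERBB, MET and ERK feedback list 19 were higher in HCT116 (55.9%) and 14 in LS180 (41.2%). The shares over all genes were 33.7% and 42.6%. The ligands epiregulin (EREG, 828, 789 and 738 CPM against 157, 164 and 177 CPM) and TGFA (70.8 ± 3.58 against 15.1 ± 0.372 CPM) were higher in HCT116, as were the receptor FGFR1 (29.4, 34.0 and 33.6 CPM against 0.161, 0.291 and 0.323 CPM), the ERK phosphatase DUSP5 (69.2 ± 4.53 against 6.38 ± 0.319 CPM) and the AP-1 subunit FOSL1 (51.0 ± 7.75 against 5.87 ± 0.385 CPM). The receptors ERBB3 (26.2, 22.0 and 22.9 CPM against 209, 207 and 194 CPM), ERBB2 (58.2 ± 1.99 against 138 ± 6.99 CPM) and IGF1R (9.31 ± 0.946 against 24.5 ± 2.22 CPM) were higher in LS180, and the stem cell factor receptor KIT was at 29.9, 28.1 and 28.1 CPM there with 0 counts in HCT116. The ERK feedback inhibitor SPRY2 was higher in LS180 (44.9 ± 1.65 against 3.31 ± 0.223 CPM), unlike DUSP5.

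Of 30 tested TGF-beta and BMP genes 17 were higher in LS180 and 6 in HCT116. BMP7 was at 102, 104 and 97.4 CPM in LS180 and 7.46, 4.63 and 5.97 CPM in HCT116, and SMAD9 at 18.3 ± 1.28 against 1.09 ± 0.215 CPM. SMAD3 was higher in HCT116 (49.2 ± 3.2 against 12.9 ± 1.03 CPM), and SMAD2, its close relative, was not called (113 ± 1.5 and 111 ± 2.57 CPM). In the Hedgehog pathway the ligand SHH was at 79.3, 83.4 and 79.8 CPM in LS180 and 0.569, 0.285 and 0.316 CPM in HCT116, and the receptor and target PTCH1 at 27.3, 25.5 and 22.7 CPM against 1.12, 0.981 and 1.10 CPM. SMO, the signal transducer, was the reverse, at 11.5, 11.4 and 12.1 CPM in HCT116 and 0.268, 0.194 and 0.144 CPM in LS180. The effector GLI2 was higher in LS180 (2.01 ± 0.324 against 0.740 ± 0.115 CPM). Of 13 tested genes of the pathway 6 were higher in HCT116 (46.2%), 4 in LS180 (30.8%) and 3 not called, beside 33.7% and 42.6% over all genes.

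The list of D and E cyclins and CDK inhibitors also holds CDK4, CDK6 and RBL2. Of its 20 genes 9 were higher in each line (45%), 1 of them at least 8-fold on each side. Over all genes 33.7% were higher in HCT116 and 42.6% in LS180, 7.12% and 9.32% at least 8-fold. Cyclin D2 (CCND2) was at 251, 248 and 253 CPM in LS180 and 0.0748, 0.0713 and 0 CPM in HCT116. CDKN2A, the locus of p16 and ARF, was at 14.6, 14.8 and 16.8 CPM in HCT116 and 0.0357, 0.0777 and 0.0718 CPM in LS180. Cyclin E1 (CCNE1, 58.4 ± 2.52 against 26.1 ± 0.691 CPM) was higher in HCT116, and CDK6 (63.1 ± 9.97 against 144 ± 4.92 CPM) and the p27 gene CDKN1B (31.7 ± 0.255 against 66.8 ± 1.93 CPM) in LS180. Of 36 proliferation genes 18 were higher in HCT116, 8 in LS180 and 10 not called, none at least 8-fold apart. MKI67 was at 151, 201 and 203 CPM against 55.8, 71.2 and 53.1 CPM, while KIF11 (84.2 ± 9.13 against 128 ± 5.19 CPM) and CDC45 (21.5 ± 1.97 against 37.9 ± 1.40 CPM) were higher in LS180. Growth rate was not measured.

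Of 31 tested genes of the DNA damage and cell death response 13 were higher in HCT116 (41.9%), 7 in LS180 (22.6%) and 11 not called. The death genes PMAIP1 (73.7 ± 7.30 against 10.4 ± 0.249 CPM) and BAX (38.0 ± 3.36 against 14.2 ± 0.750 CPM) were higher in HCT116, BBC3 (14.4 ± 1.97 against 22.9 ± 1.39 CPM) and CCNG1 (149 ± 12.8 against 276 ± 15.1 CPM) in LS180, and MDM2 was not called (260 ± 19.3 and 247 ± 11.4 CPM). Of 24 mismatch repair and other DNA repair genes 9 were higher in HCT116 (37.5%), 10 in LS180 (41.7%) and 5 not called. These shares were close to the 33.7% and 42.6% over all genes. MSH3 was at 3.88, 4.37 and 4.00 CPM in HCT116 and 30.5, 28.8 and 33.1 CPM in LS180. MSH6 was the reverse (210, 249 and 250 CPM against 96.3, 93.4 and 96.6 CPM), and the direct repair gene MGMT was higher in LS180 (16.1 ± 0.765 against 4.75 ± 0.221 CPM).

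Genes of immune recognition differed in both directions, as all genes did, with large single differences. Of 20 tested HLA and antigen presentation genes 8 were higher in HCT116 (40%) and 11 in LS180 (55%), beside 33.7% and 42.6% over all genes. The immunoproteasome subunit PSMB8 was at 0.150, 0.161 and 0.158 CPM in HCT116 and 70.9, 69.9 and 70.4 CPM in LS180, while PSMB9, its neighbour in the cluster, was lower by less (1.52 ± 0.0674 against 10.7 ± 0.297 CPM). HLA-B (39.0, 37.0 and 36.7 CPM against 8.08, 10.8 and 8.54 CPM) and HLA-C (137 ± 8.06 against 64.4 ± 5.29 CPM) were higher in HCT116, while HLA alleles can differ between lines and the effect of that on the counting was not tested. Of 39 tested interferon response genes 22 were higher in LS180, 13 of them at least 8-fold, and 11 in HCT116. IFITM1 (41.8 ± 2.01 against 0.0931 ± 0.0237 CPM) and OAS1 (35.7 ± 2.62 against 0.153 ± 0.0765 CPM) were higher in LS180, SAMD9 (31.2 ± 1.49 against 1.95 ± 0.0716 CPM) in HCT116, and OAS3 was not called (40.1 ± 4.87 and 39.5 ± 1.66 CPM). Of 28 tested inflammatory genes 18 were higher in LS180 and 5 in HCT116. The alarmin IL33 was at 198, 194 and 209 CPM in LS180 and 0.0599, 0 and 0.0197 CPM in HCT116, and PIGR, which carries antibody across the epithelium, at 292, 190 and 189 CPM against 0.0299, 0 and 0.0197 CPM. NFKB2 (35.3 ± 2.17 against 16.6 ± 0.818 CPM) was higher in HCT116, and NFKBIA was not called (29.6 ± 2.95 and 30.0 ± 0.812 CPM).

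Positional and imprinted genes differed in both directions, as all genes did. Of 25 tested HOX genes 8 were higher in HCT116 (32%) and 11 in LS180 (44%), close to the 33.7% and 42.6% over all genes. HOXC9 was at 5.36 ± 0.310 CPM in HCT116 and 0.00647 ± 0.0112 CPM in LS180, HOXA13, the most posterior of its cluster, at 4.79 ± 0.168 against 43.2 ± 1.79 CPM, and HOXA9 was not called (42.1 ± 3.27 and 39.0 ± 1.16 CPM). The noncoding RNAs HOTTIP (8.92 ± 0.372 against 0.0819 ± 0.0237 CPM), next to HOXA13, and HULC (61.1 ± 7.69 against 0.00594 ± 0.0103 CPM) were higher in LS180, while MALAT1 (585 ± 28.0 against 279 ± 26.3 CPM) and PVT1 (20.8 ± 2.34 against 7.24 ± 0.514 CPM) were higher in HCT116. Of 23 tested imprinted genes 11 were higher in HCT116 (47.8%), PEG10 (4.75 ± 0.568 against 0.0861 ± 0.0132 CPM) and PLAGL1 (7.95 ± 0.211 against 0.209 ± 0.0456 CPM) among them, and 12 in LS180 (52.2%). Their median log2 difference of -0.12 changed sign with some filters, with ribosomal protein totals and with the untreated libraries alone. On chromosome 11 KCNQ1 (57.8 ± 5.98 against 1.28 ± 0.316 CPM) was higher in LS180, and the antisense RNA KCNQ1OT1 (8.75 ± 0.681 against 2.85 ± 0.238 CPM) in HCT116. The strand setting of the counting is not given in the sources used here, so reads of this pair may not be told apart. Of 47 cancer-testis genes 19 passed the filter, 6 higher in HCT116 (31.6%) and 10 in LS180 (52.6%). PRAME (34.8 ± 2.30 against 0.547 ± 0.239 CPM) stood beside MAGEB2 in HCT116, and MAGEA12 (57.6 ± 1.67 against 0.0657 ± 0.0289 CPM) in LS180, as far as reads of the MAGEA copies can be told apart.

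Zinc finger genes of the ZNF name, many of them repressors in clusters on chromosome 19, were unevenly divided by position. Of 518 such genes 444 passed the filter, 173 higher in HCT116 and 177 in LS180, with a median log2 difference of 0.02. Of the differences of at least 8-fold, 62 were higher in LS180 and 15 in HCT116. On chromosome 19, with 208 tested, 45 were at least 8-fold higher in LS180 and 9 in HCT116, against 17 and 6 of the 236 tested on the other chromosomes. Over all genes tested, 9.32% were called at least 8-fold higher in LS180 and 7.12% in HCT116. In HCT116 37 of the genes called higher in LS180 had 0 counts, 28 of them on chromosome 19, whereas 1 gene, ZNF804A, was called higher in HCT116 with 0 counts in LS180. ZNF486 was at 35.1, 33.9 and 34.6 CPM in LS180 with 0 counts in HCT116. ZNF681 (19.7 ± 0.958 CPM), ZNF716 (16.2 ± 1.22 CPM), ZNF260 (16 ± 0.848 CPM) and ZNF626 (15.8 ± 1.27 CPM) were likewise at 0 counts in HCT116, and ZNF655 was the main case the other way (46.5 ± 2.40 CPM in HCT116 against 0.855 ± 0.199 CPM). The excess on chromosome 19 was noticed in these data and was not tested.

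**Figure D3:**
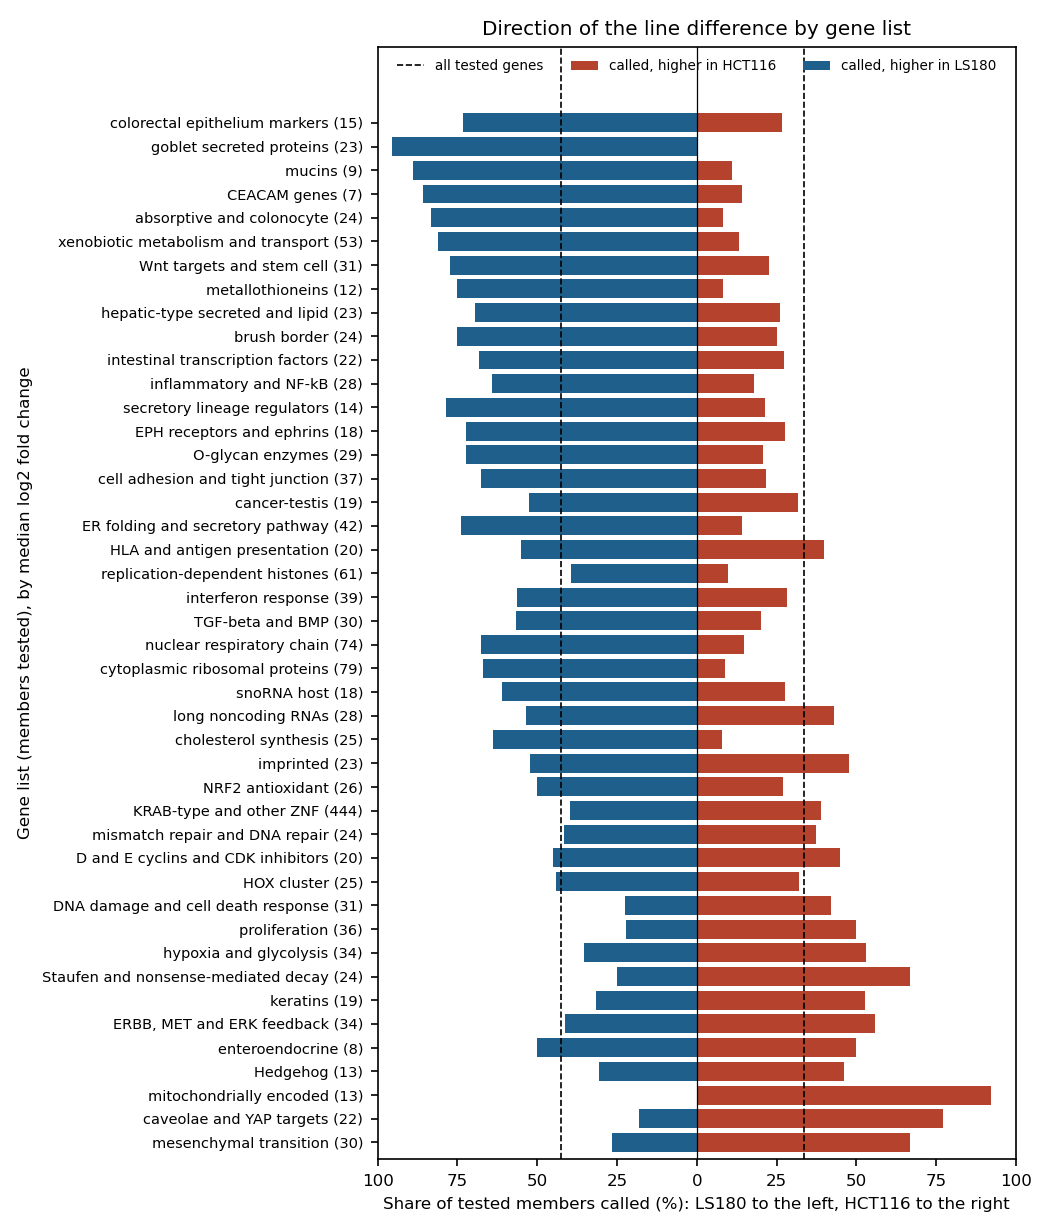
Share of the tested members of each gene list that were called higher in HCT116 and higher in LS180, in percent, for lists with at least 7 tested members. Goblet cell proteins, mucins and xenobiotic genes lie on the side of LS180, and caveolae and mesenchymal genes on that of HCT116, beside 33.7% and 42.6% over all genes (dashed lines).

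Ribosomal protein, nuclear respiratory chain and cholesterol genes differed by small medians that the scaling could move. Of 79 ribosomal protein genes 53 were called higher in LS180, 7 in HCT116 and 19 were not called (median log2 difference -0.30). Scaling by the totals of these same genes moved the median of all genes by 0.27, which is nearly the size of this difference, and turned the sign of the cholesterol list's median of -0.26. RPL13A (1676 ± 151 against 2748 ± 22.8 CPM) and RPS6 (1333 ± 105 against 2169 ± 64.1 CPM) were the most unequal. Of 74 nuclear genes of the respiratory chain 50 were higher in LS180 and 11 in HCT116, UQCRC2 (140 ± 13.1 against 296 ± 8.08 CPM) on one side and CYC1 (228, 226 and 240 CPM against 104, 111 and 103 CPM) on the other. The 13 genes encoded in the mitochondrion ran against them: 12 were higher in HCT116 and none in LS180 (median log2 difference 1.10). Over the settings tried this median was 1.04 to 1.36. MT-ND6 was at 7.63, 12.9 and 10.3 CPM against 2.88, 2.39 and 2.71 CPM, and MT-CO1, the most abundant of those named, was not called (272 ± 40.4 and 232 ± 24 CPM). Of 42 genes for protein folding and export from the endoplasmic reticulum 31 were higher in LS180 and 6 in HCT116, the disulfide isomerases PDIA4 (766 ± 34.5 against 317 ± 8.83 CPM) and PDIA6 (594 ± 13.9 against 246 ± 3.04 CPM) among the former. HSPA5, the main chaperone there, was a little higher in HCT116 (365 ± 10.5 against 314 ± 33.0 CPM).

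Of 34 hypoxia and glycolysis genes 18 were higher in HCT116 (52.9%) and 12 in LS180 (35.3%), beside 33.7% and 42.6% over all genes. NDRG1 (124 ± 2.37 against 15.3 ± 0.702 CPM), the phosphofructokinase PFKP (291, 327 and 353 CPM against 67.4, 72.6 and 68.1 CPM), the glucose carrier SLC2A1 (187 ± 9.01 against 61.8 ± 1.32 CPM) and the lactate carrier SLC16A3 (278 ± 19.4 against 75.0 ± 3.21 CPM) were higher in HCT116. CA9, a textbook hypoxia gene (16.5 ± 1.00 against 0.230 ± 0.0750 CPM), and VEGFA (83.1 ± 1.24 against 30.3 ± 3.85 CPM) were higher in LS180, and LDHA was not called (847 ± 68.7 and 750 ± 7.73 CPM). Of 25 cholesterol synthesis genes 16 were higher in LS180, INSIG1 (365 ± 27.7 against 70.4 ± 3.10 CPM) the most, and 2 were higher in HCT116. Of 61 tested replication-dependent histone genes 31 were not called, 24 were higher in LS180 and 6 in HCT116. HIST1H3J was at 192, 224 and 245 CPM in HCT116 and 2.88, 3.88 and 3.38 CPM in LS180, and HIST1H2AE at 331, 347 and 314 CPM in LS180 and 0.150, 0.267 and 0.217 CPM in HCT116, with the limit that histone copies share reads. Of 24 Staufen and nonsense-mediated decay genes 16 were higher in HCT116 and 6 in LS180 (median log2 difference 0.26, none at least 8-fold). EIF4A3 of the exon junction complex (251 ± 20.7 against 128 ± 2.2 CPM) and the decapping enzyme DCP2 (103 ± 3.52 against 53.2 ± 1.83 CPM) were higher in HCT116 and the decapping adaptor PNRC2 in LS180 (174 ± 9.39 against 87.2 ± 2.93 CPM). Of 18 snoRNA host genes 11 were higher in LS180 and 5 in HCT116, and of those with at least 1 CPM the largest differences were those of SNHG3 (1120 ± 202 against 530 ± 48.2 CPM), higher in LS180, and SNHG16 (423 ± 20.6 against 172 ± 5.96 CPM), higher in HCT116. SNHG14, named after its values were seen, was at least 8-fold higher in LS180 at a level below this (0.186 ± 0.0730 against 0.00594 ± 0.0103 CPM).

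Small differences also went together along some chromosomes. Among genes of at least 5 CPM in both lines 47.0% had a positive log2 difference (median -0.04). On chromosome 8 it was 63.4% (median 0.20) and on chromosome 17 60.2% (median 0.15), while on chromosome 7 it was 34.8% (median -0.19), on X 40.4%, on 13 41.0% and on 3 41.1%. DNA copy number was not measured, and its part in these values was not tested.

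**Figure D4:**
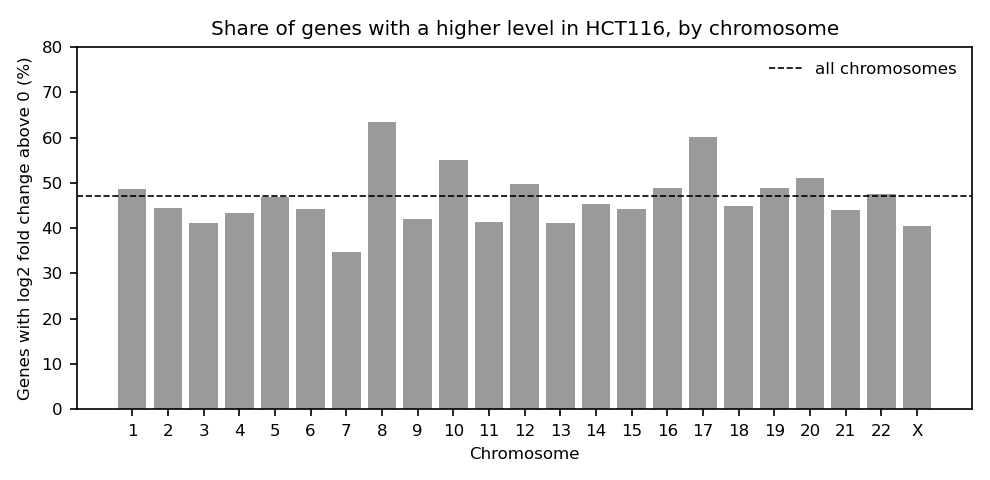
Share of genes with a positive log2 difference (higher in HCT116) on each chromosome, in percent, among genes of at least 5 CPM in both lines, with the share over all chromosomes as a line at 47.0%. Chromosomes 8 and 17 lie above the line and chromosome 7 below it.

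The line difference lasted through the time course. Of the 1228 genes at least 8-fold higher in HCT116 at 0 h, 1212 were called higher in HCT116 at 2 h and 1210 at 4 h. Of the 1608 higher in LS180, 1601 were called so at 2 h and 1592 at 4 h, and none of either set was called in the opposite direction at either time. These 12 libraries are separate from the 6 used above but come from the same 2 lines, so they repeat the measurement and not the choice of lines, and in a drug that stops transcription RNA that was absent at 0 h could hardly appear.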

How the data were processed

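Total RNA of HCT116 and LS180 was sequenced as stranded libraries. The expected counts per gene were deposited by the authors, made with cutadapt, STAR 2.7 and RSEM 1.3.1 on hg19 per the submitters' processing notes. The deposited effective length per gene was used in one alternative. Not given in the sources used here are the annotation release, the strand setting and the read filter. Counts were rounded for the fit, and symbols kept as deposited. Gene classes and chromosomes came from GENCODE 29 (94.1% of genes matched).

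The 18 actinomycin D libraries in 6 groups were fitted together with edgeR 4.0.16 in R 4.3.3 (quasi-likelihood, TMM, filterByExpr, 12 residual degrees of freedom), and the 0 h contrast HCT116 minus LS180 was adjusted over 17256 genes by Benjamini-Hochberg at 0.05. In simulated data of this comparison (16988 genes), 88.1% of 1.5-fold, 97% of 2-fold and 100% of 4-fold changes were recovered, and 4.04% of 198 calls were false. Both lines were simulated at the LS180 levels, with 200 genes above 1 CPM changed. In the data 76.3% of genes were called, so these rates do not cover errors of scaling between lines that differ so widely. Genes named are the study genes, 5 markers, the 10 largest differences above 10 CPM and the 5 most abundant 8-fold differences in each direction, and up to 5 members a list and direction above 1 CPM, with up to 3 uncalled or opposite ones. The comparison, the 48 lists and their members were chosen with earlier results of these data known. Other size factors, filters, DESeq2, the 6 libraries alone and left-out libraries were tried. The siRNA libraries were not used here. Some genes the naming rule gives are not reported here. Intervals and bounds cover counting error only.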

Additional observations from a re-analysis of the deposited data

Results flagged for a closer look

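The line difference of FOXA3 was not the same at 4 h of actinomycin D as at 0 h. Its log2 difference, HCT116 minus LS180, was -0.85 at 0 h, 0.76 at 2 h and 0.96 at 4 h, and the difference between the 4 h and 0 h values was 1.81 (SE 0.324, edgeR interaction test, adjusted p = 0.000662). At 4 h the level was 0.733 ± 0.240 CPM in HCT116 and 0.376 ± 0.0620 CPM in LS180 (n = 3 each). The same test was run for STAU1, STAU2, FOXA1 and FOXA2, and none of these 4 passed it. FOXA2 was at 0.0425 CPM in HCT116 at 0 h and 0 CPM at 4 h, with 0.420 CPM in LS180 at 4 h. At such levels the test says little about FOXA2. The cause was not tested.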

How the results depend on the processing

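The counts of called genes stayed within 1.5 times of the values reported, except for a filter of 1 CPM in every library of a group, which tested 13663 genes and left 785 genes at least 8-fold higher in HCT116 and 950 in LS180. Leaving out each untreated library in turn gave 5580 to 5668 genes higher in HCT116 and 7119 to 7339 in LS180, and 1223 to 1281 and 1627 to 1721 at least 8-fold. With the 6 untreated libraries alone 16340 genes could be tested and 6287 and 6653 were called. Against the all-gene median, RLE size factors moved log2 differences by 0.12 and ribosomal protein totals by 0.27. Among the genes named, NFKBIA was the one that turned, to 0.25 with ribosomal protein totals (edgeR adjusted p = 0.0377), and BBC3 lost its call there. HOXA9, LDHA, MDM2, MT-CO1, SMAD2 and TEAD4, not called as reported, passed with several other scalings. Replicate numbers did not pair the lines: the correlations of same-numbered deviations were -0.0119, -0.146 and -0.158. With the replicate block 5862 and 7409 genes were called, 1227 and 1612 of them at least 8-fold apart. Genes with a few counts in one line have no reliable fold beyond the bounds given, and depth sets those bounds.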
